A study of Homo sapiens with 14 samples.

Results

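The MAP kinase genes and the genes of their feedback inhibitors were taken from the deposited tables by symbol: every gene named MAPK, MAP2K, MAP3K or MAP4K with a number, MAPK followed by A, or DUSP, SPRY or SPRED with a number. The rule found 63 genes among the 12202 listed in either of the authors' deposited tables, 60 of them in the table for siRNA against CALCRL, 62 in the table for an enhancer deletion and 59 in both. By known role, 35 encode kinases, 12 encode feedback inhibitors (7 MAP kinase phosphatases, 3 Sprouty and 2 SPRED proteins) and 9 encode atypical DUSP phosphatases. The other 7 match by name only, among them a pseudogene, an antisense RNA, scaffold proteins and MAPKAP1, a subunit of the mTORC2 complex. MAP3K8, DUSP2 and DUSP10 were not analysed here.

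MAP kinase cascades pass signals from receptors at the cell surface to the nucleus by relayed phosphorylation: a MAP4K or RAS protein activates a MAP3K, which activates a MAP2K, which activates a MAP kinase of the ERK, p38, JNK or ERK5 family. Active ERK raises the transcription of its own inhibitors, chiefly the DUSP phosphatases that remove phosphate from MAP kinases and the Sprouty and SPRED proteins that act on the route to RAS and RAF, so the transcripts of these genes are often read as a record of recent ERK signalling. In endothelial cells ERK carries signals of VEGF and FGF receptors, while p38, JNK and ERK5 respond to inflammatory cytokines, stress and flow.

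All 14 libraries came from teloHAEC, an endothelial line from human aorta made immortal by telomerase. In the siRNA arm, 4 libraries were of cells given si-CALCRL by reverse transfection, an siRNA against the gene of a receptor for adrenomedullin and CGRP, and 4 of cells given scrambled siRNA, with RNA taken at 24 hours. In the deletion arm, 3 libraries were from cells electroporated with Cas9 ribonucleoproteins cutting on both sides of an enhancer that the labels name for CALCRL. The other 3 were from cells given a guide against HPRT, and RNA was taken at 2 days. The edited cells were a mixed population and not a clone, and carry the telomerase transgene as all the groups do. RNA was read near the polyadenylated end only (QuantSeq 3' mRNA-seq).

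The authors' deposited tables give 1 log2 fold change per gene and arm, with its standard error (SE), and no value for any library. The spread over libraries therefore shows only in the SE, and whether single libraries of the groups overlap is not known. Where group means are given, they were computed from the deposited mean normalised count and fold change, with equal weight for both groups. Nothing states whether libraries of a group came from separate cultures, so p-values measure the spread between these libraries, and in RNA from whole cultures fewer cells of a type cannot be told apart from less RNA per cell. A gene was called when the authors' adjusted p-value (DESeq2 Wald test, Benjamini-Hochberg over the table) was under 0.05. The library depths are unknown. Summed over genes, the mean normalised count came to 4547165 for siRNA and 5153709 for the deletion.

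CALCRL was lower in both arms, at -1.56 (SE 0.17) and -1.47 (SE 0.43, adjusted p = 0.00962) on the log2 scale in the authors' deposited tables. Of 12 endothelial markers, 11 were listed in both arms, PECAM1 being the exception, and their summed implied mean went from 9403 in the control to 9095 normalised counts under siRNA and from 8747 to 7250 after the deletion. Of the 11, 1 was called lower under siRNA and 2 after the deletion, with 0 higher. Both arms listed 0 of 7 fibroblast markers, 3 of 6 smooth muscle markers and 1 of 5 leukocyte markers, and of 5 epithelial markers KRT8 and KRT18. The sum of KRT8 and KRT18 went from 2510 in the control to 2116 under siRNA, with 0 called. It went from 1992 to 4298 after the deletion, with 1 called higher. The part of such cells in the results was not tested. The median SE was 0.17 for siRNA and 0.41 for the deletion.

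Under siRNA 2 of the 60 members were called (3.33%), MAP3K7 lower and DUSP22 higher. The siRNA comparison called 3.46% of all its genes, 1.05% higher and 2.42% lower. At an unadjusted p under 0.05 (DESeq2) there were 8 of 60 members and 1354 of all 11261 genes. The median log2 fold change of the 60 was 0.05, against 0.003 for all genes. The deletion moved 17 of 62 (27.4%), 13 of them lower and 4 higher. None of the 17, and so none of the kinase and feedback calls among them, passed once the statistics were read against Student's t on 4 degrees of freedom (16 members at an unadjusted p under 0.05) or after the Wald statistics were divided by their robust SD of 1.88 (7 members). Neither did CALCRL in the deletion arm. Both readings act on every gene, and the share of all genes called under them is not given here. The deletion comparison called 15.8% of all its genes, 7.40% higher and 8.44% lower. The members' share called lower was 21.0% and their share called higher 6.45%, and their median log2 fold change was -0.23 against 0.005 for all genes.

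**Figure D1:**
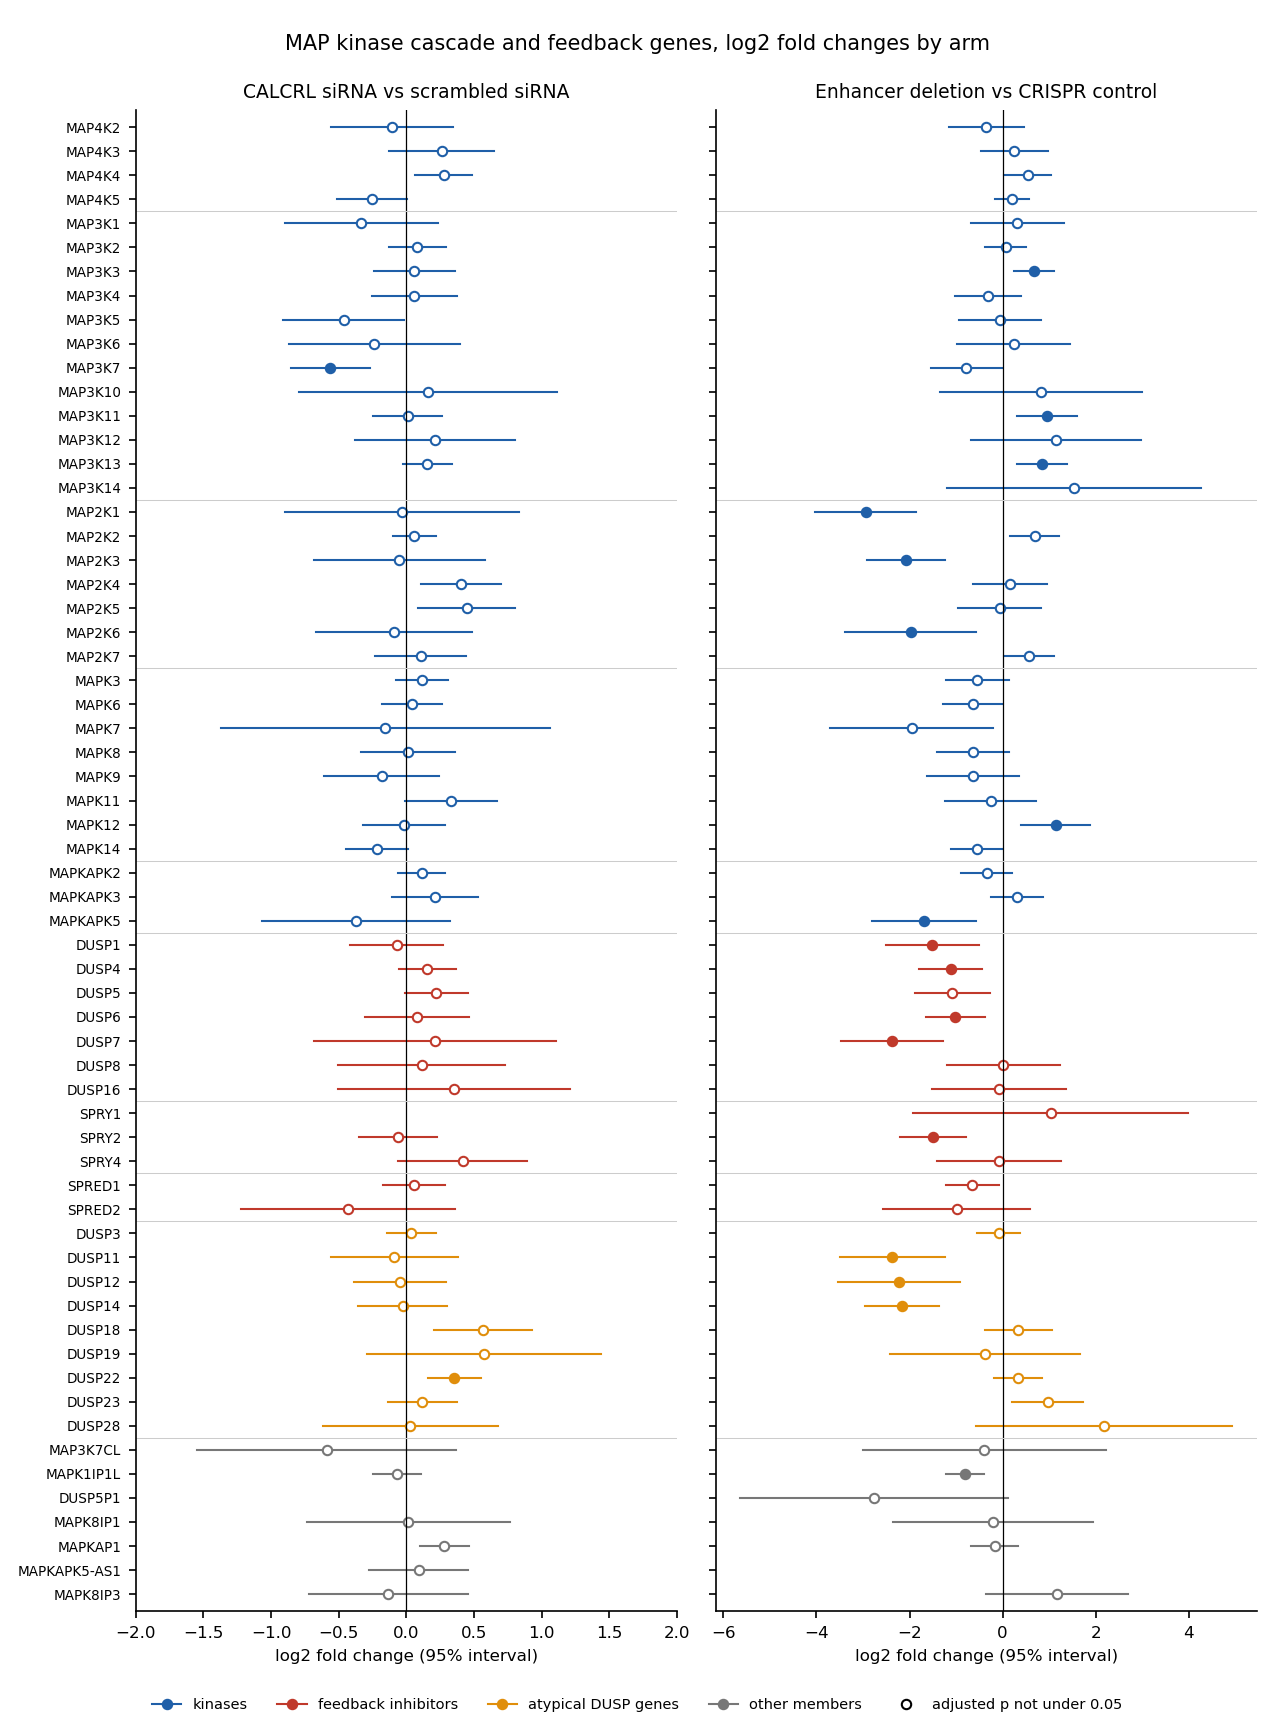
Log2 fold change of 62 of the 63 genes (points, with 95% intervals from the deposited SE as lines) in the siRNA arm (left) and the deletion arm (right, wider axis), with kinases ordered from MAP4K to MAPKAPK above the feedback inhibitors. Filled points are called at an adjusted p under 0.05: 2 on the left and 17 on the right, of which 13 lie below 0.

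In the ERK branch, the deletion lowered MAP2K1, the gene of MEK1, which phosphorylates both ERK kinases. MAP2K1 (ENSG00000169032) lies on chromosome 15 from 66386817 to 66492312, plus strand, in GRCh38. Its implied mean was 207 normalised counts in the control and 26.9 in the deletion group, or 13.0% of the control (95% interval 6.15% to 27.5%). The authors' deposited table gave a log2 fold change of -2.94 (SE 0.55, adjusted p = 1.8e-05). The siRNA table held MAP2K1 at 238 and 233 counts, a log2 fold change of -0.03 with a wide SE of 0.44.

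MAP2K2, which encodes MEK2, the other kinase of the same step, was at 391.5 and 630 counts in the deletion arm, a log2 fold change of 0.69 that missed the threshold in the authors' deposited table (SE 0.27, adjusted p = 0.0590). MAPK3 (ERK1) did not pass it either, at 502 and 344 counts and -0.55 (95% interval -1.22 to 0.13, adjusted p = 0.286 in the authors' deposited table). With the trend on GC content removed, described below, MAPK3 passed, at -1.13 (adjusted p = 0.0164). In the siRNA arm its interval spanned 0, from -0.08 to 0.31. ERK5, the stress and flow kinase encoded by MAPK7, was at 30.8 and 7.94 counts after the deletion, and its log2 fold change of -1.96 missed the threshold in the authors' deposited table (SE 0.90, adjusted p = 0.117). MAP2K5, which activates ERK5, was in the authors' deposited tables at -0.07 (SE 0.46) after the deletion and 0.44 (SE 0.18, adjusted p = 0.212) under siRNA.

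In the p38 branch the deletion lowered MAP2K3 and MAP2K6, which encode activators of p38. MAP2K3 was at 359 counts in the control and 85.0 in the deletion group, 23.7% of the control, with a log2 fold change of -2.08 (SE 0.43, adjusted p = 0.000115) in the authors' deposited table. MAP2K6, a lower-count gene, was at 47.8 and 12.2 counts and -1.97 (SE 0.72, adjusted p = 0.0413). In the siRNA table MAP2K3 was at -0.05 (SE 0.32) and MAP2K6 at -0.09 (SE 0.29), both within error.

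The p38 kinases did not move as 1 group. MAPK12 (p38 gamma) rose from 104 to 230 counts in the deletion arm, a log2 fold change of 1.14 in the authors' deposited table (SE 0.38, adjusted p = 0.0243). MAPK14 (p38 alpha) was at 341 and 231 counts and missed the threshold at -0.56 (SE 0.28, adjusted p = 0.159 in the authors' deposited table). Among the kinases that p38 activates, MAPKAPK5 fell from 138 to 43.0 counts (-1.69, SE 0.57, adjusted p = 0.0275 in the authors' deposited table), while MAPKAPK2, which acts on HSPB1 and on mRNA stability, was at -0.34 (SE 0.28, adjusted p = 0.441). MAPK12 shares exon sequence on the same strand with HDAC10 in GENCODE 29, and MAPKAPK5 with ADAM1A, so reads of these pairs may be split or mixed by counting. MAP2K1 and MAPK7 overlap exons of other genes on the opposite strand (SNAPC5, and B9D1 with MFAP4), as do MAP3K3 (LIMD2), MAP3K13 (TMEM41A) and DUSP6 (AC024909.2). Whether counting used the strand was not stated, so these values are uncertain to that extent.

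At the MAP3K level the calls of the deletion arm were all higher, 3 of 12: MAP3K3, MAP3K11 and MAP3K13. Over all genes of that arm 7.40% were called higher and 15.8% in either direction. MAP3K3 (MEKK3, upstream of ERK5 in endothelium) rose from 443 to 705 counts, 0.67 (SE 0.22, adjusted p = 0.0212) in the authors' deposited table. MAP3K11 (MLK3) rose from 250 to 483 counts (0.95, SE 0.33, adjusted p = 0.0294) and MAP3K13 (LZK) from 438 to 791 counts (0.85, SE 0.27, adjusted p = 0.0200), by the same deposited table. Both are activators of the JNK branch. With the GC trend removed, none of the 3, nor MAPK12, remained past the threshold, at 0.48, 0.38, 0.62 and 0.55 (adjusted p = 0.123, 0.476, 0.119 and 0.357). Counting called and uncalled genes alike, 9 of the 12 MAP3K genes had a log2 fold change above 0 and 8 of the 9 MAPK genes one below 0. Over all 11830 genes tested, 5952 lay above 0 and 5878 below. The MAP3K genes above 0 include MAP3K10, MAP3K12 and MAP3K14, with mean counts of only 7.61, 17.1 and 8.67. Whether these tiers differ from other genes was not tested.

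None of the JNK genes and their direct activators passed in either arm. MAPK8 (JNK1) and MAPK9 (JNK2) were at -0.64 (SE 0.40) and -0.63 (SE 0.50) after the deletion in the authors' deposited table. MAP2K4 was at 0.16 (SE 0.40) and MAP2K7 at 0.57 (SE 0.27, adjusted p = 0.142) in the same deposited table. MAP2K4 came nearest in the siRNA arm, at 0.40 (SE 0.15, adjusted p = 0.143 in the authors' deposited table). MAP3K5 (ASK1), which responds to oxidative stress, was at -0.05 (SE 0.45) after the deletion and -0.46 (SE 0.23, adjusted p = 0.384) under siRNA in the authors' deposited tables. The 4 MAP4K genes, 0 of them called in either arm and 1 in each arm at an unadjusted p under 0.05, included MAP4K4, the member with the highest count, at 3095 and 4490 in the deletion arm (0.54, SE 0.25, adjusted p = 0.131 in the authors' deposited table).

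Of the feedback inhibitors, 5 of 12 were called in the deletion arm (41.7%), each of the 5 lower, and 10 of 12 had a log2 fold change below 0. The background, as above, was 8.44% called lower and 15.8% in either direction, and 5878 of 11830 genes lay below 0. The 5 were DUSP1, DUSP4, DUSP6, DUSP7 and SPRY2. No feedback gene was called in the siRNA arm by DESeq2, 0 of 11, also with 0 at an unadjusted p under 0.05.

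DUSP6, a cytoplasmic phosphatase with a strong preference for ERK, was the most abundant of them, with 1201 counts in the control and 594 in the deletion group. Its log2 fold change was -1.02 (SE 0.32, adjusted p = 0.0192) in the authors' deposited table, or 49.5% of the control (95% interval 31.8% to 76.9%). DUSP7, its close relative, fell from 163 to 31.3 counts (-2.38, SE 0.56, adjusted p = 0.00111 in the authors' deposited table). DUSP4, a nuclear phosphatase that ERK induces, fell from 437 to 202 counts (-1.11, SE 0.34, adjusted p = 0.0152). DUSP1, an immediate-early phosphatase that acts on p38 and JNK as well as ERK, fell from 247 to 86.9 counts (-1.51, SE 0.51, adjusted p = 0.0289 in the authors' deposited table). DUSP5, the nuclear ERK phosphatase, was at 153 and 72.5 counts and narrowly missed the threshold (-1.08, SE 0.41, adjusted p = 0.0523 in the authors' deposited table). DUSP8 and DUSP16, which prefer JNK and p38, had low counts, 24.1 and 28.5 in the control, and differed by less than their error, at 0.02 (SE 0.62) and -0.09 (SE 0.73).

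SPRY2, the Sprouty protein that restrains receptor tyrosine kinase signals, fell from 147 to 52.3 counts, 35.5% of the control (-1.49, SE 0.36, adjusted p = 0.00162 in the authors' deposited table). SPRY4 was at 31.5 and 29.9 counts (-0.08, SE 0.68), and SPRY1, listed only in the deletion arm, at 5.03 and 10.3 counts (1.04, SE 1.51). At such counts a change of the size seen for SPRY2 was not detectable for SPRY1. SPRED1, which brings neurofibromin to RAS at the membrane, was at 315 and 201 counts and missed the threshold (-0.65, SE 0.29, adjusted p = 0.108 in the authors' deposited table). SPRED2 was at -0.98 (SE 0.81, adjusted p = 0.432 in the same deposited table).

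Under siRNA the same genes stayed close to their controls. DUSP6 was at 1274 and 1345 counts (0.08, SE 0.19), DUSP4 at 295 and 329 (0.16, SE 0.11) and DUSP5 at 225 and 262 (0.22, SE 0.12), by the authors' deposited table. DUSP1 was at 217 and 206 counts (-0.07, SE 0.17) and SPRY2 at 191 and 183 (-0.06, SE 0.15). For SPRY2 the 95% interval ran from 78.3% to 117% of the control, which holds no loss of the size seen after the deletion, whereas for DUSP7 it ran from 62.4% to 215% (0.21, SE 0.45). The largest estimates were SPRY4 at 0.41 (SE 0.24, adjusted p = 0.538) and SPRED2 at -0.43 (SE 0.40, adjusted p = 0.812) in the authors' deposited table, and neither was called.

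**Figure D2:**
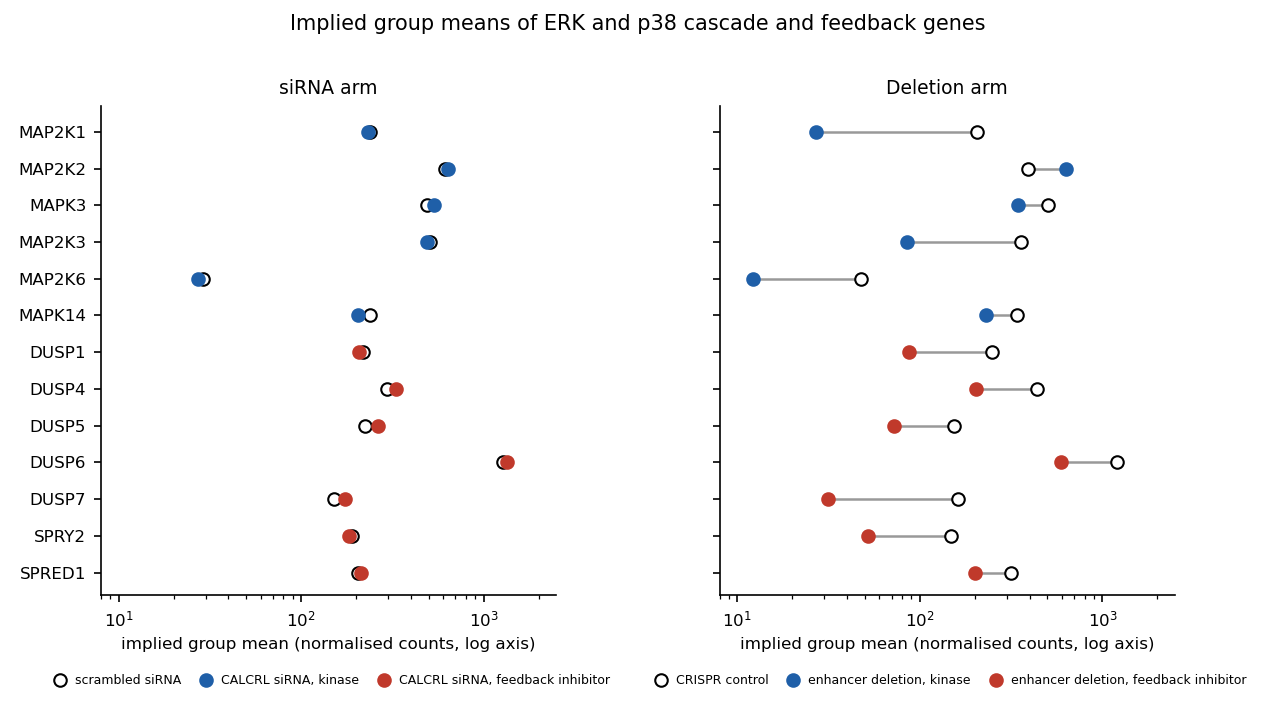
Implied group means in normalised counts (log axis) of 13 genes of the ERK and p38 branches and their feedback inhibitors, control as open circles and treated as filled circles joined by a line, with no error shown. In the siRNA arm (left) the circles nearly coincide, while in the deletion arm (right) DUSP6 goes from 1201 to 594 and MAP2K1 from 207 to 26.9. The 13 genes were picked from the members. Among those not drawn are DUSP8, DUSP16, SPRY1 and SPRY4, which were not called, and MAPK12, which was called higher after the deletion.

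Receptors that signal through cyclic AMP act on genes through the CREB site (CRE), and a role of this site here was not tested. Sequences just upstream of DUSP1, SPRY2 and DUSP6, which were among the feedback genes called lower after the deletion, are shown. They are the 250 bases before the RefSeq start site, in GRCh38.p14 and read on the gene's minus strand, at chr5:172771196-172771445 for DUSP1, chr13:80341127-80341376 for SPRY2 (the most upstream of its 3 listed starts) and chr12:89352502-89352751 for DUSP6. Capitals mark the CRE, TGACGTCA, and its core TGACG, on either strand.
DUSP1: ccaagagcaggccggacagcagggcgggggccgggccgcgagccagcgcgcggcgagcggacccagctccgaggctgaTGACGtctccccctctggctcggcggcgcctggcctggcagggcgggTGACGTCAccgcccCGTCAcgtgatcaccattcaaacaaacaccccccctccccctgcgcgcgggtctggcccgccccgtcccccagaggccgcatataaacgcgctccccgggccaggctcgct
SPRY2: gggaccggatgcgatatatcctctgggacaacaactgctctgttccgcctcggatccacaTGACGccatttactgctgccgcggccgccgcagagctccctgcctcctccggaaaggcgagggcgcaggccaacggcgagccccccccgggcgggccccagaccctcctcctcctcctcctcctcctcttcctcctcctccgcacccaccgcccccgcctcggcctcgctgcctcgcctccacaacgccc
DUSP6: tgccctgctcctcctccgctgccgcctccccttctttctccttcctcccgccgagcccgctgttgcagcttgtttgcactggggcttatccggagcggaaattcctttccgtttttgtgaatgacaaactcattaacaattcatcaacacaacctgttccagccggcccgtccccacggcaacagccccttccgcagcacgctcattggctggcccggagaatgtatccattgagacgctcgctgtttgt
DUSP1 has a full CRE at position -125 from the start and cores at -172 and -111, besides the 2 within the CRE, on its 2 strands. SPRY2 has 1 core at -190 from its most upstream start and no match before its other listed starts, and DUSP6 has no match. Over RefSeq promoters of 27305 genes, 2.03% hold the full CRE and 24.9% the core in the 250 bases before any of their starts. Among the 54 members with an entry, 5 hold the full CRE (DUSP1, DUSP8, MAP3K13, MAPK8IP3 and MAPKAPK5-AS1) and 20 the core. Of 10 feedback genes 2 hold the full CRE (DUSP1 and DUSP8) and 4 the core (these with SPRY2 and SPRY4). DUSP8 and SPRY4 were not called in the deletion arm, at log2 fold changes of 0.02 and -0.08. An AP-1 site (TGANTCA) was found in 1 member, MAP2K3, against 8.06% of all genes, an ETS core (CCGGAAG) in 7 members, SPRY1 the only feedback gene, against 10.2%, and a CArG box in none, against 1.44%. These matches are a description of the letters and were not tied to the fold changes.

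Set beside each other in the deletion arm, the kinases had 8 of 35 called (22.9%), 4 higher and 4 lower (11.4% each). Over all genes 15.8% were called, 7.40% higher and 8.44% lower. The kinases had a median log2 fold change of -0.05 and 17 genes above 0. The feedback inhibitors had 5 of 12 called (41.7%), all lower, with a median of -1.0 and 2 above 0. In the siRNA arm the kinases had 1 of 34 called (2.94%, with 3.46% over all genes) and a median of 0.03. The feedback inhibitors there had 0 of 11 called and a median of 0.11, with 8 above 0. The difference between the kinases and the inhibitors was not tested, since the genes were grouped with these results known. The lower calls were not limited to the inhibitors, as they included MAP2K1, MAP2K3, MAP2K6 and MAPKAPK5.

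**Figure D3:**
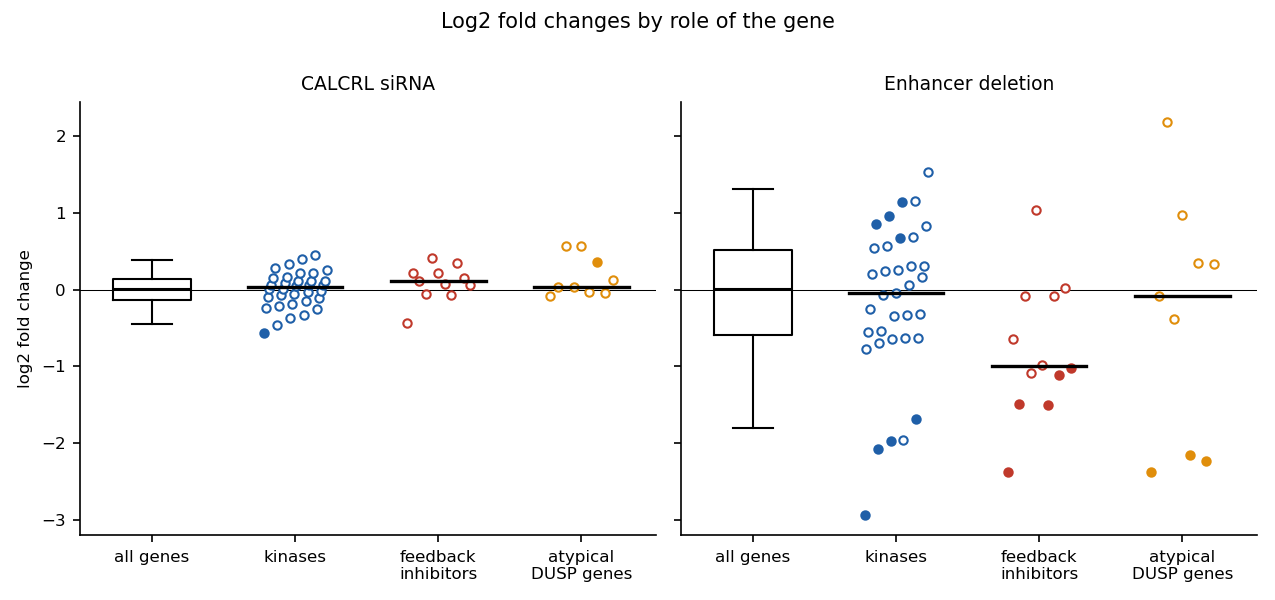
Log2 fold changes in both arms for kinases, feedback inhibitors and atypical DUSP genes (points, filled where called, bar at the median) beside all genes of each table (box, quartiles; whiskers, 5th to 95th percentile). In the deletion arm the median of the feedback inhibitors is -1.0 and that of the kinases -0.05, while in the siRNA arm all medians lie near 0.

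The atypical DUSP genes encode small phosphatases without the domain that docks on MAP kinases, and several act on other substrates. The deletion lowered 3 of 9 (33.3%, with 8.44% called lower and 15.8% called in either direction over all genes). DUSP14 fell from 364 to 81.5 counts (-2.16, SE 0.41, adjusted p = 2.2e-05 in the authors' deposited table). DUSP11, which removes phosphate from the ends of RNA, fell from 83.0 to 16.02 counts (-2.37, SE 0.58, adjusted p = 0.00157), and DUSP12 from 116 to 24.7 counts (-2.23, SE 0.67, adjusted p = 0.0125), by the authors' deposited table. DUSP3, which acts on ERK and JNK and has the highest count of the 9, was at 561 and 528 counts, within its error (-0.09, SE 0.23). Of the genes matched by name only, 1 of 6 was called (16.7%, near the 15.8% of all genes). It was MAPK1IP1L, which went from 905 to 519 counts (-0.80, SE 0.21, adjusted p = 0.00309 in the authors' deposited table). DUSP28 in the control and the pseudogene DUSP5P1 in the deletion group had implied means under 3 counts, so no fold is given for them.

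The siRNA arm's lower call was MAP3K7, the gene of TAK1, which carries signals of inflammatory cytokines and TGF-beta to p38, JNK and NF-kappa B. It lies on chromosome 6 from 90513573 to 90587045, minus strand, in GRCh38. MAP3K7 fell from 237 to 161 counts, 67.8% of the control (95% interval 55.3% to 83.0%), with a log2 fold change of -0.56 (SE 0.15, adjusted p = 0.0083) in the authors' deposited table. In the deletion arm it was at 273 and 159 counts (-0.78, SE 0.39, adjusted p = 0.164 in the authors' deposited table), so the direction of the estimate was the same and its error larger. The higher call was DUSP22, an atypical phosphatase linked to JNK and T cell receptor signalling, which rose from 245 to 313 counts (0.35, SE 0.10, adjusted p = 0.0158 in the authors' deposited table). DUSP22 was at 0.34 (SE 0.26, adjusted p = 0.404) after the deletion. The next nearest were MAPKAP1 at 0.28 (SE 0.09, adjusted p = 0.0613) and DUSP18 at 0.56 (SE 0.19, adjusted p = 0.0631), neither called in the authors' deposited table.

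Genes lowered in the siRNA arm often carry the 7-base word GTAACAA in the 3' UTR: 150 of 266 called lower (56.4%) and 986 of the other 10373 (9.51%) did, a word that had been picked on these same data. Of 58 members with an annotated 3' UTR, 8 carried it (13.8%), and MAP3K7 did not. The sites of 4 of them are shown to give their surroundings, with the word in capitals.
MAPK14: aaaataaaaaaGTAACAAggtgtcttttcc
MAPK6: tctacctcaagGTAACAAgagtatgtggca
MAP4K5: aaacaatgtttGTAACAAgggtgccatggt
SPRED2: ttgtatctgtgGTAACAAaacattaaccaa
The others are MAP2K6, MAP3K1, MAP4K2 and MAPKAPK5. In the siRNA arm 7 of the 8 had a log2 fold change below 0, with a median of -0.23 against 0.07 for members without the word, and 0 were called. MAPK14 was at -0.22 (SE 0.12), MAP4K5 at -0.25 (SE 0.13) and MAPK6 at 0.04 (SE 0.11) in the authors' deposited table. Over all genes the medians with and without the word were -0.12 and 0.01.

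The arms differed from each other for 12 of 59 members (20.3%), by a normal test of the difference of the deposited fold changes adjusted over 10891 genes, and 13.7% of all genes did. In 11 of the 12 the siRNA value was the higher one. Feedback inhibitors made up 5 of them, out of 11 (45.5%): DUSP4, DUSP5, DUSP6, DUSP7 and SPRY2, with a median difference of 1.09 over the 11 genes. Kinases made up 3 of 34: MAP2K1, MAP2K3 and, in the other direction, MAPK12. The siRNA minus deletion difference was 1.09 (SE 0.38, adjusted p = 0.0343) for DUSP6 and 1.30 (SE 0.43, adjusted p = 0.0253) for DUSP5, by that normal test. Delivery, time and control guide also differ between the arms, and cannot be told apart from the target as a source of these differences.

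Among the members, 5 had a large SE in the siRNA arm, where no call was made for them, and 4 of the 5 were called lower in the deletion arm. Relative to the genes of nearest mean count, the siRNA SE was 3.30 times as large for MAP2K1, 3.03 for DUSP7, 3.02 for MAPK7, 2.90 for MAP2K3 and 2.41 for MAPKAPK5, and DUSP6 was next at 1.998, just under the limit of 2, followed by MAP3K3 at 1.40. For MAP2K1 the SE implied a coefficient of variation of 43.1% among siRNA libraries, against 13.1% for genes of its mean count. Among all genes 219 exceeded 2, and of the 214 tested in the deletion arm 207 were below 0 and 144 were called lower, 1 higher. Without the 5 members the deletion calls were 13 of 57 (22.8%), with 4 higher and 9 lower. Without all genes of high siRNA SE, 14.9% of genes were called, 7.52% higher and 7.36% lower. Kinases then had 5 of 31 (16.1%, near that share), 4 higher and 1 lower (MAP2K6). Feedback inhibitors had 4 of 11 (36.4%), all lower, with a median of -0.98. DUSP1, DUSP4 and SPRY2 had ratios of 1.27, 0.86 and 1.05. The part of single libraries in these values was not tested.

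**Figure D4:**
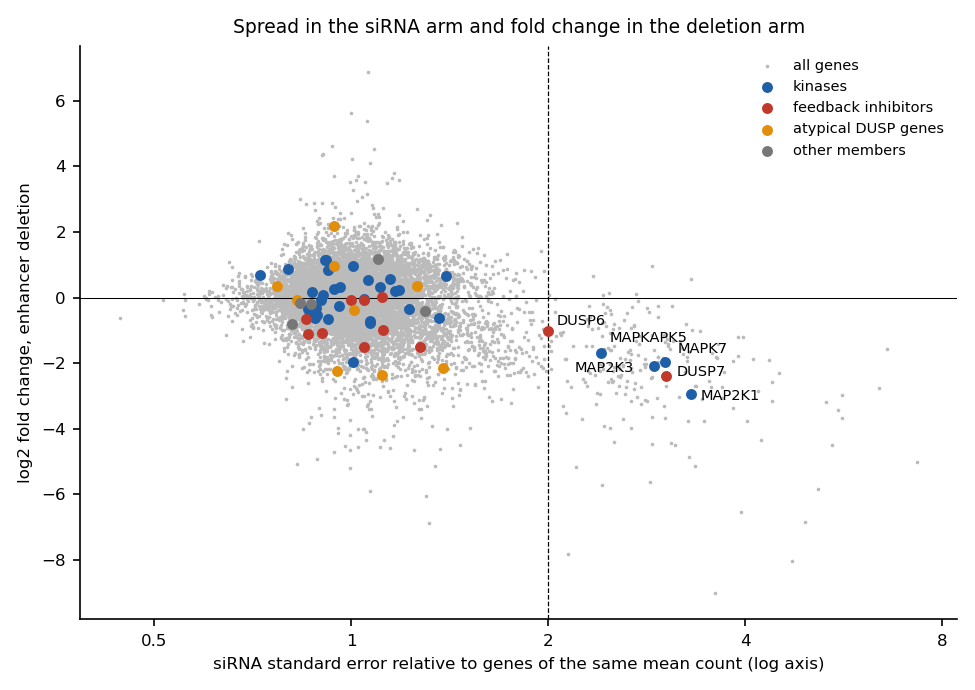
Deletion log2 fold change against the siRNA SE relative to genes of the same mean count (log axis), for all genes in both tables (grey) and the members by role, with a dashed line at 2. MAP2K1, DUSP7, MAPK7, MAP2K3 and MAPKAPK5 lie to the right of the line and all below 0, and DUSP6 lies at 1.998.

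The deletion fold changes also varied with base composition. Across genes, which are not independent replicates, they correlated with the GC content of the last 500 transcript bases (Spearman 0.302, and 0.0741 in the siRNA arm), and over 5 groups of rising GC content the median went from -0.23 to 0.50. Feedback genes had a median GC content of 40.6% and kinases of 45.8%. The 4 members called higher were at 50.6% (MAP3K3), 51.8% (MAP3K13), 61.8% (MAP3K11) and 62.6% (MAPK12). DUSP14, one of the genes called lower, had no match in GENCODE 29 and so no GC value, and left the count for that reason alone. With the trend removed by a lowess fit, 12 of the other 61 members were called (19.7%), 1 higher (MAP4K4 at 0.77, adjusted p = 0.0285) and 11 lower. Over all genes 617 were called higher (5.31%) and 823 lower (7.08%) in place of 875 and 999, or 12.4% in either direction. Feedback inhibitors then had 4 of 12 called (33.3%), all lower, with a median of -0.83. DUSP1 (-1.29, adjusted p = 0.0753), MAP2K6 (-1.82, adjusted p = 0.0707) and MAPKAPK5 (-1.44, adjusted p = 0.0721) no longer passed, with estimates near those before. The part of GC content in the fold changes was not tested beyond this.

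**Figure D5:**
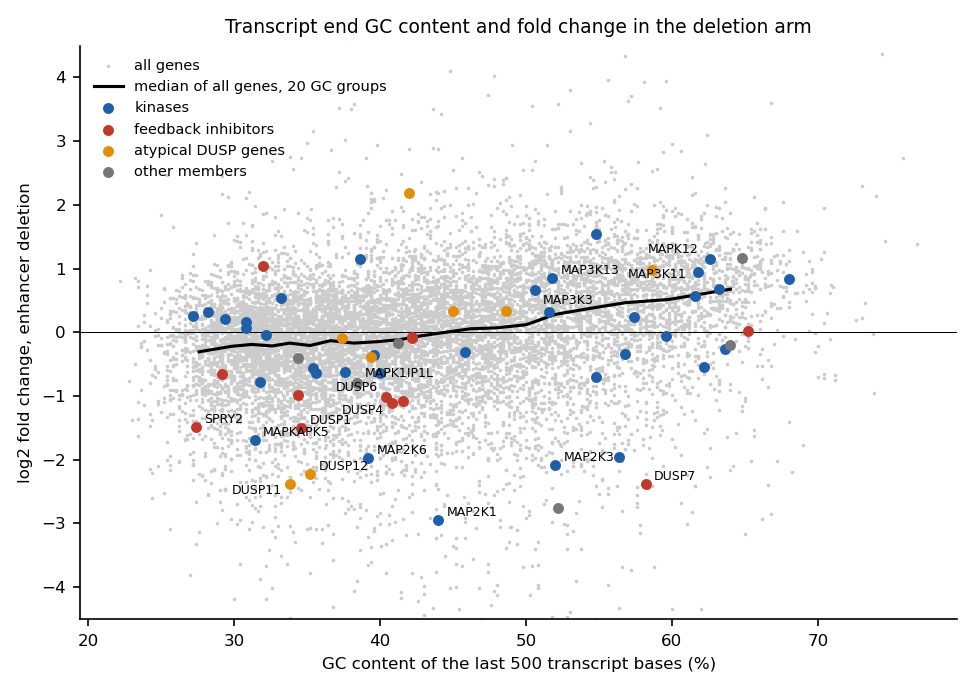
Deletion log2 fold change against the GC content of the last 500 transcript bases, for all genes (grey, with the axis limited to 4.5 on either side of 0), their median in 20 GC groups (line) and the members by role, with called members named. The called higher members lie at GC contents from 50.6% to 62.6%, while SPRY2, DUSP1, DUSP4 and DUSP6 lie below the line at GC contents under 41%.

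Upstream of the cascade, 24 genes of the RAS and RAF step were set as a list. In the deletion arm 3 of 23 were called, each of them lower (13.0%, with 8.44% called lower and 15.8% in either direction over all genes). They were NRAS (-2.16, SE 0.39), KSR1, a scaffold for RAF, MEK and ERK (-1.39, SE 0.45), and LAMTOR3, which holds MEK1 at the late endosome (-1.61, SE 0.56), in the authors' deposited table. HRAS, at 0.80 (SE 0.31), was not called. With the GC trend removed 4 of 23 were called (17.4%, with 12.4% over all genes). NRAS and KSR1 were lower and ARAF (0.93, adjusted p = 0.0465) and PTPN11 (0.85, adjusted p = 0.0054) higher, and LAMTOR3 no longer passed (-1.39, adjusted p = 0.0814). In the siRNA arm 2 of 23 were called, both lower (8.70%, with 2.42% called lower and 3.46% in either direction over all genes). They were SHOC2 (-0.51, SE 0.13, adjusted p = 0.0056 in the authors' deposited table), which promotes RAF activation, and NF1, the RAS inhibitor neurofibromin (-0.61, SE 0.19, adjusted p = 0.0346). NF1 carries the word GTAACAA in its 3' UTR and SHOC2 does not.

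Downstream, the calls among the ERK output genes went in both directions. In the deletion arm 7 of 19 were called (36.8%, with 15.8% over all genes), 3 higher and 4 lower. IER3 (0.86, SE 0.27), UPP1 (1.21, SE 0.37) and the ETS factor gene ETV4 (1.27, SE 0.45) rose in the authors' deposited table, whereas PLAUR (-2.30, SE 0.50), MYC (-2.36, SE 0.54), EPHA2 (-1.66, SE 0.59) and EMP1 (-0.96, SE 0.27) fell. PLAUR, MYC and EPHA2 were among the genes of high siRNA SE, with ratios of 4.51, 2.36 and 3.29, and without such genes 3 of 16 were called higher and 1 lower. With the GC trend removed the split was 1 higher (IER3) and 4 lower (26.3% in either direction, with 12.4% over all genes). UPP1 (0.74, adjusted p = 0.182) and ETV4 (0.86, adjusted p = 0.197) no longer passed. The median of the 19 was -0.04. Well-known ERK outputs that did not pass were CCND1 (0.05, SE 0.24), FOSL1 (0.00, SE 0.30), ETV5 (-0.04, SE 0.25) and EGR1 (-0.47, SE 0.73). Under siRNA 1 of 20 was called (5.0%, with 3.46% over all genes). It was HBEGF, which encodes a ligand of the EGF receptor (0.51, SE 0.14, adjusted p = 0.0152 in the authors' deposited table).

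Of 23 kinases and transcription factors that MAP kinases act on, 22 were tested in the deletion arm and 4 called (18.2%, near the 15.8% of all genes): STMN1 (0.78, SE 0.21) and HSPB1 (0.87, SE 0.24) higher, ZFP36L1 (-1.13, SE 0.36) and ELK1 (-2.38, SE 0.78) lower in the authors' deposited table. With the GC trend removed STMN1 and ELK1 remained called, while HSPB1 (0.25, adjusted p = 0.536) and ZFP36L1 (-0.89, adjusted p = 0.0827) did not. None of the 23 was called under siRNA, with 1 at an unadjusted p under 0.05 (DESeq2). Among other phosphatases of MAP kinases, 1 of 6 was called in the deletion arm (16.7%, near the 15.8% of all genes). It was PPM1D, a phosphatase of p38, from 106 to 23.7 counts (-2.16, SE 0.54, adjusted p = 0.0020 in the authors' deposited table). Under siRNA 0 of 7 were called, with 2 at an unadjusted p under 0.05.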

How the data were processed

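The members and gene lists were chosen with earlier results of these data known. The authors used featureCounts for counting and DESeq2 for the group comparison, per the file names. Per gene, the deposited tables hold the mean normalised count, the log2 fold change with its SE, the Wald statistic (a score) and p-values with and without adjustment, per the file headers. The submitters' processing notes name hg19 and edgeR 3.24.3 with no role, and the aligner is not given in the sources used here. The deposited statistic equalled fold change over SE, and the deposited adjusted p-value a Benjamini-Hochberg adjustment over the table. Count models were planned for counts per library and were replaced by the authors' tests.

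Intervals of 95% used the SE and the normal quantile, and cover the SE only. The arms were compared with a normal test (scipy 1.17.1, pandas 2.3.3, Python 3.11.15), tested on simulated data. GC content, 3' UTRs and exon overlaps came from GENCODE 29 (GRCh38) by gene ID, for 61 of 62 members in the deletion table, and start sites from RefSeq (GRCh38.p14). The GC trend was a lowess fit of span 0.3 (statsmodels 0.14.6). SE ratios used the running median over 201 genes of nearest mean count. Other settings were a minimum mean count of 20, a Student t reference, division by the robust SD and a size threshold of 1 on the log2 scale. Genes were named if called in either arm, if the arms differed, if on a fixed list of ERK, p38, JNK, MAP3K and feedback genes, or as called genes of the pathway lists, at most 4 per direction. Other names were chosen after their values were seen. Some named genes are not reported here singly, but are in the counts.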

Additional observations from a re-analysis of the deposited data

Results flagged for a closer look

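For 12 members the arms gave unlike log2 fold changes by a test of the difference itself (normal test, Benjamini-Hochberg over 10891 genes). As siRNA minus deletion, the difference was 2.91 (SE 0.70) for MAP2K1, 2.59 (SE 0.72) for DUSP7, 2.28 (SE 0.62) for DUSP11, 2.18 (SE 0.69) for DUSP12, 2.13 (SE 0.44) for DUSP14 and 2.03 (SE 0.53) for MAP2K3. It was 1.43 (SE 0.39) for SPRY2, 1.30 for DUSP5, 1.27 (SE 0.36) for DUSP4, 1.09 for DUSP6 and 0.73 (SE 0.23) for MAPK1IP1L. MAPK12 alone had the opposite sign, at -1.16 (SE 0.41). The adjusted p-values ran from 0.000202 for DUSP14 to 0.0378 for MAPK12. MAP2K1, DUSP7 and MAP2K3 are among the genes of high siRNA SE, and the ratio for DUSP6 is 1.998. Why the arms differ was not tested.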

How the results depend on the processing

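No paired analysis was possible because the deposited tables hold no value per library, and leaving out each replicate and the replicate block were not run for the same reason. With a Student t reference the members called fell from 2 to 0 for siRNA (6 at an unadjusted p under 0.05) and from 17 to 0 for the deletion (16), kinases to 0 (3) and 0 (7), and feedback inhibitors of the deletion arm to 0 (5). CALCRL, at -1.56 and -1.47, then had adjusted p-values of 0.102 and 0.357. Dividing the statistics by their robust SD left 1 siRNA member, 0 deletion members (7 unadjusted), 0 kinases (2), 0 feedback inhibitors (2) and 0 members differing between the arms (5), with CALCRL at -1.47 (adjusted p = 0.975) in the deletion arm. Both of these alternatives act on every gene, and the share of all genes called under them is not given here. A log2 fold change of at least 1 left 0 members and 0 kinases for siRNA, where 27 of all 11261 genes remained. For the deletion it left 5 of 35 kinases, with 1334 of all 11830 genes. With the GC trend removed, 5 of 35 kinases were called in the deletion arm (14.3%, with 12.4% over all genes), and CALCRL was at -1.07 (adjusted p = 0.0753). Of the members named, uncalled estimates then changed sign for MAP3K11 (-0.0059, siRNA), MAP2K7 (-9.8e-05), SPRY4 (0.0011) and MAP3K5 (0.18), and also for DUSP8 (-0.64) and DUSP3 (0.10). Chosen after seeing the data, leaving out genes of high siRNA SE left 5 of 31 kinases in the deletion arm (16.1%, with 14.9% over all genes). Counting every DUSP gene as a feedback inhibitor, also chosen so, gave 1 call of 20 for siRNA (5.0%, with 3.46% over all genes). For the deletion it gave 8 of 21 (38.1%, with 15.8% over all genes). With a minimum mean count of 20, DUSP5 passed in the deletion arm (adjusted p = 0.0465). The kinase median of the deletion arm went from -0.05 to 0.16 without the genes of high siRNA SE and to -0.20 with the GC trend removed. The median of the feedback inhibitors lay between -1.05 and -0.65 under the settings run. The -0.65 is for the wider set with every DUSP gene counted, and with the GC trend removed the feedback inhibitors alone were at -0.83. Apart from the alternatives' own construction, the cause was not tested. Low counts limit SPRY1, DUSP28 and DUSP5P1.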
